A study of Thermothelomyces thermophilus ATCC 42464 with 24 samples.

Results

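The genes described here are those of Myceliophthora thermophila, a thermophilic cellulose-degrading fungus, that were most strongly induced in the wild type (WT) on Avicel, a microcrystalline cellulose, relative to glucose. They were chosen from the measured values themselves. CPM (the reads of a gene per 1000000 reads assigned to genes in a library) was averaged over 2 WT libraries on glucose and 2 WT libraries on Avicel at 2 d, and a gene was a member when the Avicel mean was at least 50 CPM and at least 8 times the glucose mean plus 1 CPM. Of 9110 genes, 79 met both thresholds. The rule also names 5 genes to leave out, 3 of which met the thresholds, so 76 genes remained. Everything below on WT at 2 d or WT on glucose therefore describes the choice, carries no test and supports nothing.

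The RNA-seq series compared 12 groups grown at 45 °C. On 2% glucose at 24 h there were WT, Δcre-1, ΔlaeA and 3 grf strains (Δgrf-1, Δgrf-2 and Δgrf-3). On Avicel there were WT and ΔlaeA, each at 2, 4 and 6 d. Every group had 2 libraries except Δgrf-2, for which 1 library of counts was used, 23 libraries in all. The strains other than WT carry a deletion of the named gene by their labels, which state no further allele or agent, and how many clones of a strain were grown is not given in the sources used here.

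Cellulose is taken apart outside the hyphae by enzymes with separate roles. Endoglucanases cut within chains, cellobiohydrolases release cellobiose from chain ends, beta-glucosidases turn cellobiose into glucose, and lytic polysaccharide monooxygenases (LPMOs, called glycoside hydrolase family 61 in older annotation) break crystalline chains by oxidation. In filamentous fungi such genes are usually low on glucose, where the repressor CRE-1 acts in carbon catabolite repression, and LaeA is a putative methyltransferase known for controlling secondary metabolite genes and, in several fungi, cellulase genes.

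Totals ran from 18114947 to 33937501 counts per library. The members held 0.211% to 0.624% of a library's counts on glucose and 0.618% to 10.4% on Avicel. Transcripts of laeA and cre-1 did not fall in the strains labelled as lacking them, and those of the grf genes were not analysed here. Counts of laeA lay between 222.1 and 304.0 CPM in the ΔlaeA libraries against 7.43 to 128.2 CPM in the WT libraries, and those of cre-1 lay between 2215 and 2319 CPM in the Δcre-1 libraries against 438.9 to 738.0 CPM in WT on glucose. The names ΔlaeA and Δcre-1 below thus mean the libraries labelled so. The study calls its Avicel replicates biological, and no label says that the glucose replicates were separate cultures, so the p-values measure the spread between these samples, which may be technical. In bulk RNA, fewer active cells and less RNA per cell cannot be told apart.

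One pair of libraries stood apart on these genes before any comparison was made. At 4 d, replicate 2 of WT was at least 2-fold above replicate 1 for 54 of the 76 members and at least 2-fold below it for 2, with a median log2 difference of 2.38. In the other replicated groups, 0 to 25 members were at least 2-fold apart, with the highest count in Δgrf-3. The members took 1.07% of the counts in WT replicate 1 at 4 d and 5.62% in replicate 2. Counts of members that rest on this pair are given with both libraries and with each alone.

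**Figure D1:**
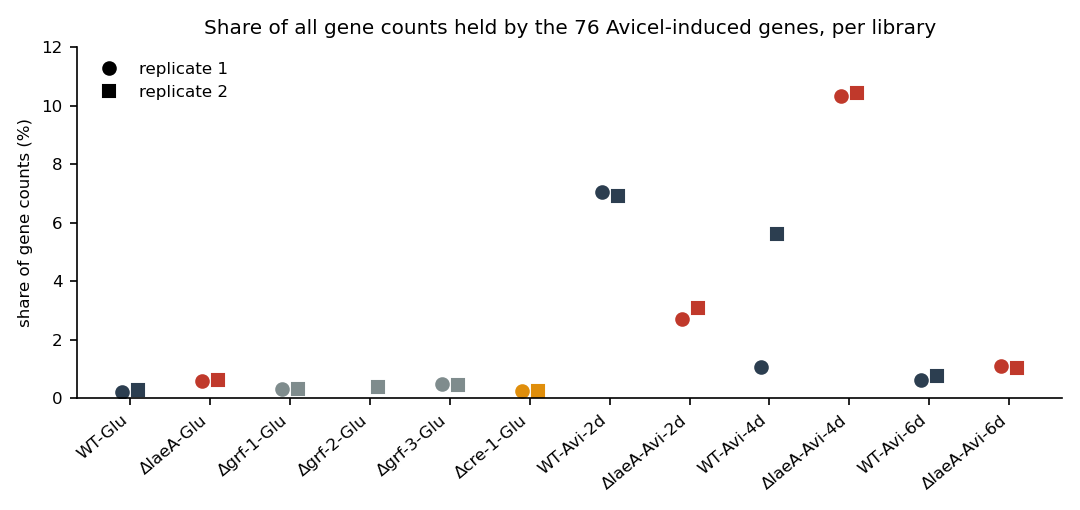
Share of all gene counts (%) held by the 76 induced genes in each of the 23 libraries, by group, with circles for replicate 1 and squares for replicate 2. The ΔlaeA libraries at 4 d stand highest at 10.3% and 10.4%, and the WT libraries at 4 d are split at 1.07% and 5.62%.

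A description from the study's annotation was used for 18 members. Of these, 14 fell into lists of enzymes drawn up from such descriptions for 865 genes, with 3 in cellulose hydrolases, 4 in LPMOs and cellobiose dehydrogenase, 1 in carbohydrate-binding module proteins, 5 in hemicellulose enzymes and 1 in fungal cell wall enzymes. No member fell among the listed sugar transporters or the pectin, galactan and mannan enzymes. For the other 58 members only the gene ID is given. The part of the annotation used here covered 1266 of the 9110 genes and 20 of the 76 members. A missing description or list entry therefore says nothing about what a gene encodes, and the lists are incomplete. Levels below are CPM scaled by TMM, a normalization that makes most genes equal on average, and are written as replicate 1 and replicate 2. A log2 fold change (log2FC) is a difference of such levels and stands with its standard error (SE).

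Per length of transcript, which is the scale on which genes can be ranked against each other, the highest member in WT at 2 d was Mycth_2303328, with a mean of 11126 RPKM (reads per 1000 bases of transcript and 1000000 reads). It was followed by the LPMO gene Mycth_112089 (GH61A) at 7384 RPKM, by Mycth_66729 at 3709 RPKM, by Mycth_86753 at 3024 RPKM and by the cellobiohydrolase gene Mycth_109566 at 2587 RPKM. The LPMO gene Mycth_110651 (GH61G) stood at 2243 RPKM. The next ranks were held by Mycth_59005 (2166 RPKM), Mycth_2308313 (1994 RPKM), Mycth_2074790, described as carrying a conserved region of hypoxia-induced proteins (1735 RPKM), and Mycth_33936 (1626 RPKM). The last member in that order, Mycth_94536, had 19.2 RPKM. The glucose-to-2 d log2FC in WT, fixed by the rule, ran from 3.28 to 9.58 with a median of 4.82.

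At the edge of the fold threshold, Mycth_2300336 (8.26 times the glucose mean plus 1), Mycth_40885 (8.29) and Mycth_2078150 (8.31) were just inside, and Mycth_2090891 (7.94), Mycth_2294752 (7.91) and Mycth_2302000 (7.83) were just outside. At the edge of the level threshold, Mycth_2064169 (63.8 CPM), Mycth_2068307 (66.2 CPM) and Mycth_94532 (68.9 CPM) were inside, and Mycth_2307568 (49.5 CPM), Mycth_48424 (48.5 CPM) and Mycth_2305952 (47.6 CPM) were outside. With a 16-fold threshold 51 genes would have been members. With the same thresholds on TMM-scaled CPM there would have been 92, the 76 members among them.

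By the gene order of a RefSeq table of assembly ASM22609v1, in which 75 members were found, members lay on all of chromosomes 1 to 7, from 4 of 908 genes on chromosome 7 to 20 of 2708 on chromosome 1. The densest was chromosome 5, with 14 of 983. There were 4 pairs of neighbouring members, Mycth_2298951 with Mycth_2124220, Mycth_50335 with Mycth_2303328, Mycth_2305637 with Mycth_2305640, and Mycth_5342 with Mycth_94536. The LPMO gene Mycth_112089 and Mycth_33936 had 1 gene between them.

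**Figure D2:**
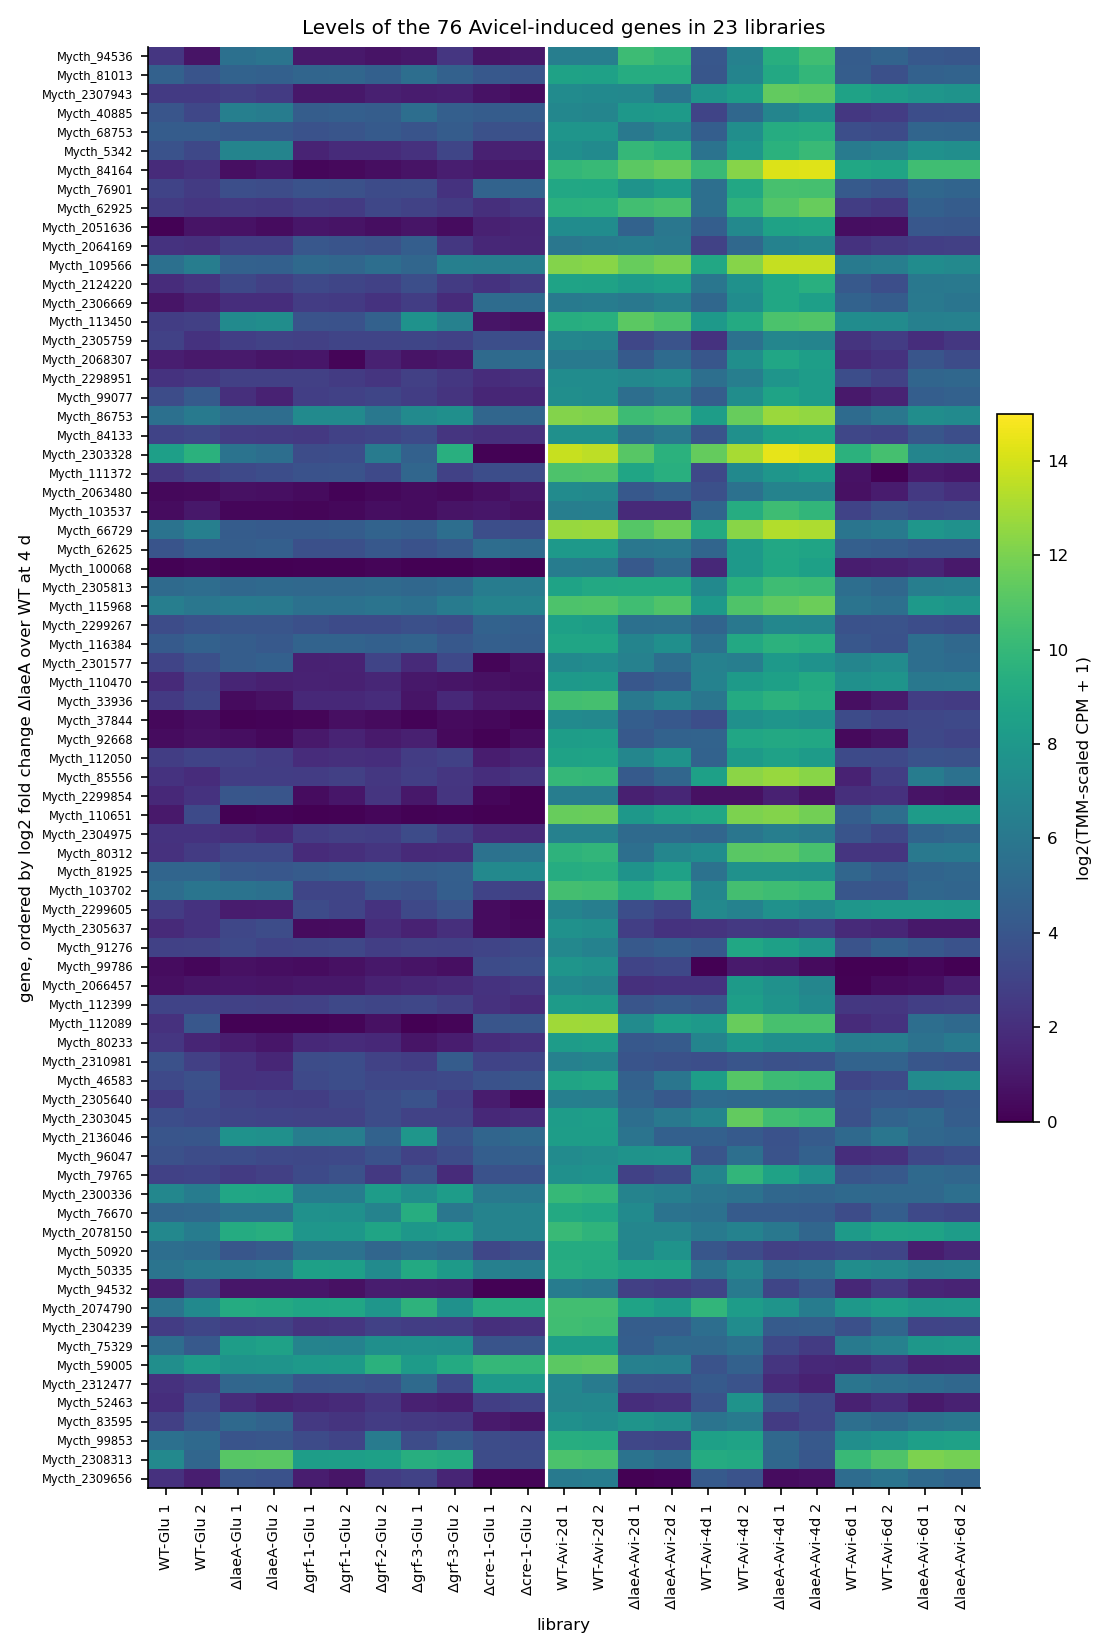
log2(TMM-scaled CPM + 1) of the 76 genes (vertical) in the 23 libraries (horizontal), with glucose left and Avicel right of the white line, and genes ordered by the log2FC of ΔlaeA over WT at 4 d. Most genes are dark on glucose and bright in WT at 2 d and in ΔlaeA at 4 d, while several genes at the bottom, among them Mycth_2308313, are dark in ΔlaeA at 2 d and 4 d.

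The first independent question was whether the genes chosen in WT also rose when ΔlaeA was grown on Avicel for 2 d instead of on glucose, libraries the rule did not use. Of the 76 members, 54 were called higher and 9 lower by edgeR's quasi-likelihood test (adjusted p below 0.05 and at least a 2-fold change), where 5.19% and 6.76% of all 8827 genes tested were called. The median log2FC of the members was 3.44, against -0.02 over all genes. Of the 4 largest rises, 3 were in enzyme genes with at most 2 counts per library on glucose.

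Mycth_84164, which has no description here, had 0.524 and 0.908 CPM on glucose and 2376 and 2991 CPM at 2 d in ΔlaeA, a log2FC of 11.84 ± 0.70 (SE), adjusted p = 3.76e-08. The cellobiohydrolase gene Mycth_109566 had 24.4 and 23.6 CPM on glucose and 2900 and 3824 CPM at 2 d (log2FC 7.13 ± 0.91 (SE), adjusted p = 8.96e-05). For both genes the Avicel libraries lay far above the glucose libraries. The LPMO genes Mycth_110651 and Mycth_112089 held 0 to 2 counts per library on glucose, so no fold is given. They had 259 and 395 CPM and 149 and 342 CPM at 2 d, with adjusted p = 1.60e-04 and 8.96e-05. The family 11 xylanase gene Mycth_100068 held 0 counts in both glucose libraries and had 17.2 and 34.4 CPM at 2 d (adjusted p = 0.0139), a call lost without either glucose library. The beta-glucosidase gene Mycth_115968 (4.56 ± 0.65 (SE), adjusted p = 1.92e-04), the endoglucanase gene Mycth_111372 (5.88 ± 1.10 (SE), adjusted p = 0.00162) and the LPMO gene Mycth_2063480 (GH61M, 5.14 ± 0.62 (SE), adjusted p = 4.02e-05) rose too, on the log2FC scale.

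The 9 members that fell in ΔlaeA from glucose to 2 d moved against the direction by which they had been chosen in WT. Mycth_2308313 had 2239 and 2318 CPM on glucose and 52.5 and 37.7 CPM at 2 d in ΔlaeA (log2FC -5.66 ± 0.56 (SE), adjusted p = 7.62e-06), while in WT it had 134 and 30.4 CPM on glucose and 1730 and 1595 CPM at 2 d. Mycth_75329 went from 328 and 387 CPM to 21.5 and 33.3 CPM in ΔlaeA (log2FC -3.70 ± 0.34 (SE), adjusted p = 2.54e-06) and from 39.5 and 17.3 CPM to 329 and 329.5 CPM in WT. In both genes the ΔlaeA glucose libraries were the high ones and the WT glucose libraries the low ones, with no overlap.

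Mycth_2309656 fell from 14.2 and 12.7 CPM to 1 and 3 counts, and Mycth_2299854 from 14.9 and 14.7 to 1.54 and 1.99 CPM (log2FC -3.06 ± 0.51 (SE), adjusted p = 4.22e-04). Mycth_2078150, described as a signal recognition particle SRP54 subunit, part of the machinery that brings secretory proteins to the endoplasmic reticulum, went from 607 and 687 to 117 and 119 CPM (log2FC -2.46 ± 0.32 (SE), adjusted p = 5.85e-05). The others were Mycth_2136046, Mycth_2300336, Mycth_2312477 and Mycth_59005. On glucose, 8 of the 9 were at least 2-fold higher in ΔlaeA than in WT without overlap, the exception being Mycth_59005, but that comparison rests on the WT libraries that chose the genes. Over all members, the same glucose description gave 19 genes higher and 20 lower in ΔlaeA, where 7.79% and 7.22% of all genes were so.

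The remaining 13 members passed the test in neither direction. Among them were the LPMO gene Mycth_103537 (GH61L), with 0.209 and 0.182 CPM on glucose and 2.42 and 2.51 CPM at 2 d, and the acetylxylan esterase gene Mycth_2066457, with 0.89 and 0.772 and 3.31 and 3.67 CPM. Mycth_85556 had 5.5 and 5.59 CPM on glucose and 18.2 and 30.5 CPM at 2 d (log2FC 2.13 ± 0.86 (SE), adjusted p = 0.0773). The carbohydrate-binding module family 1 gene Mycth_112399 (6.34 and 6.31 CPM on glucose, 14.3 and 18.4 CPM at 2 d) and Mycth_79765 (5.08 and 6.31 and 6.38 and 8.66 CPM) were alike in having low levels in all 4 libraries.

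Against WT at 2 d, which the rule used, 56 members were at least 2-fold lower in ΔlaeA and 6 at least 2-fold higher with no overlap of libraries, where 12.5% and 6.0% of all genes were so. The median log2FC was -2.21. Since genes were chosen for high values in WT at 2 d, nothing is read from these counts. The values differed widely between enzymes. The cellobiohydrolase gene Mycth_109566 had 4827 and 5181 CPM in WT and 2900 and 3824 CPM in ΔlaeA (log2FC -0.57 ± 0.69 (SE)), and the beta-glucosidase gene Mycth_115968 had 1793 and 1852 and 1326 and 1889 CPM (-0.18 ± 0.56 (SE)), with overlap. The LPMO gene Mycth_112089 had 7516 and 7119 CPM in WT and 149 and 342 CPM in ΔlaeA (-4.89 ± 0.93 (SE)). Of the 4 LPMO members, all were at least 2-fold lower, with log2FC from -5.15 in Mycth_103537 to -2.81 in Mycth_2063480.

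The 6 members that were higher in ΔlaeA at 2 d were the chitinase gene Mycth_113450, Mycth_84164, Mycth_40885, Mycth_62925, and the neighbours Mycth_5342 and Mycth_94536. Chitinases act on chitin, a component of the fungal cell wall. Mycth_94536 had 85.5 and 84 CPM in WT and 1254 and 928 CPM in ΔlaeA (log2FC 3.69 ± 0.78 (SE)). The chitinase gene had 639 and 693 and 2380 and 1732 CPM (1.63 ± 0.32 (SE)).

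Between 2 d and 4 d in ΔlaeA, 40 of the 76 members were called higher and 11 lower, where 13.4% and 10.2% of all genes were called, with a median log2FC of 1.69. Of the 40, 31 had also been called higher from glucose to 2 d, as had 54 of all 76 members. Both comparisons use the ΔlaeA libraries at 2 d, and no share over all genes is given, so nothing is read from this overlap. The largest rises were in members that had not passed the test at 2 d. Low values in the shared 2 d libraries make the first call less likely and the second rise larger, so this link is partly built in. The LPMO gene Mycth_103537 rose from 2.42 and 2.51 CPM at 2 d to 1296 and 942 CPM at 4 d (log2FC 8.82 ± 1.16 (SE), adjusted p = 4.30e-05). Mycth_85556 rose from 18.2 and 30.5 to 6702 and 5210 CPM (7.93 ± 1.06 (SE), adjusted p = 4.88e-05), the acetylxylan esterase gene Mycth_2066457 from 3.31 and 3.67 to 194 and 116 CPM (5.47 ± 1.25 (SE), adjusted p = 0.00278), and Mycth_79765 from 6.38 and 8.66 to 391 and 200.4 CPM (5.30 ± 0.87 (SE), adjusted p = 2.59e-04). Each had its lowest 4 d library far above its highest 2 d library.

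All 4 LPMO members rose from 2 d to 4 d in ΔlaeA, as did the cellobiohydrolase gene (1.97 ± 0.71 (SE), adjusted p = 0.034) and the carbohydrate-binding module gene Mycth_112399 (3.46 ± 0.88 (SE), adjusted p = 0.00543). The endoglucanase gene Mycth_111372 did not pass the test (459 and 708 CPM at 2 d, 230.0 and 312 CPM at 4 d), nor did the beta-glucosidase gene Mycth_115968 (1326 and 1889 and 2606 and 3178 CPM). Mycth_84164 reached 18571 and 20083 CPM and Mycth_2303328 21950 and 19242 CPM, the highest CPM values among the members in these libraries. Per length, Mycth_2303328 had a mean of 18114 RPKM and Mycth_84164 of 11329 RPKM.

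The largest falls from 2 d to 4 d in ΔlaeA were in genes for which no description was held here. Mycth_83595 fell from 215 and 178 to 5 and 7.96 CPM (log2FC -4.92 ± 0.34 (SE), adjusted p = 4.56e-08), Mycth_59005 from 92.6 and 87.8 to 3.96 and 2.29 CPM (-4.84 ± 0.42 (SE), adjusted p = 5.60e-07) and Mycth_50920 from 111 and 204 to 6.17 and 7.25 CPM (-4.56 ± 0.30 (SE), adjusted p = 2.93e-08). Mycth_96047 fell from 205 and 217 to 13.3 and 24 CPM (-3.50 ± 0.40 (SE), adjusted p = 7.24e-06). All 4 were also at least 2-fold lower in WT at 4 d than at 2 d, where Mycth_59005 had 2415 and 2562 CPM at 2 d and 13.3 and 24.8 CPM at 4 d.

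In WT, 39 members were at least 2-fold lower at 4 d than at 2 d without overlap and 1 was higher, where 11.6% and 10% of all genes were so. This is a description, since the 2 d libraries chose the genes. The median log2FC was -1.06, and the counts moved to 68 lower and 0 higher with WT replicate 1 of 4 d alone and to 30 lower and 13 higher with replicate 2 alone. The day of the highest mean in WT was 2 d for 62 members, 4 d for 12 and 6 d for 2. With replicate 2 alone, 28 members peaked at 4 d, and with replicate 1 alone 1 did. In ΔlaeA, 17 members peaked at 2 d, 51 at 4 d and 8 at 6 d.

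**Figure D3:**
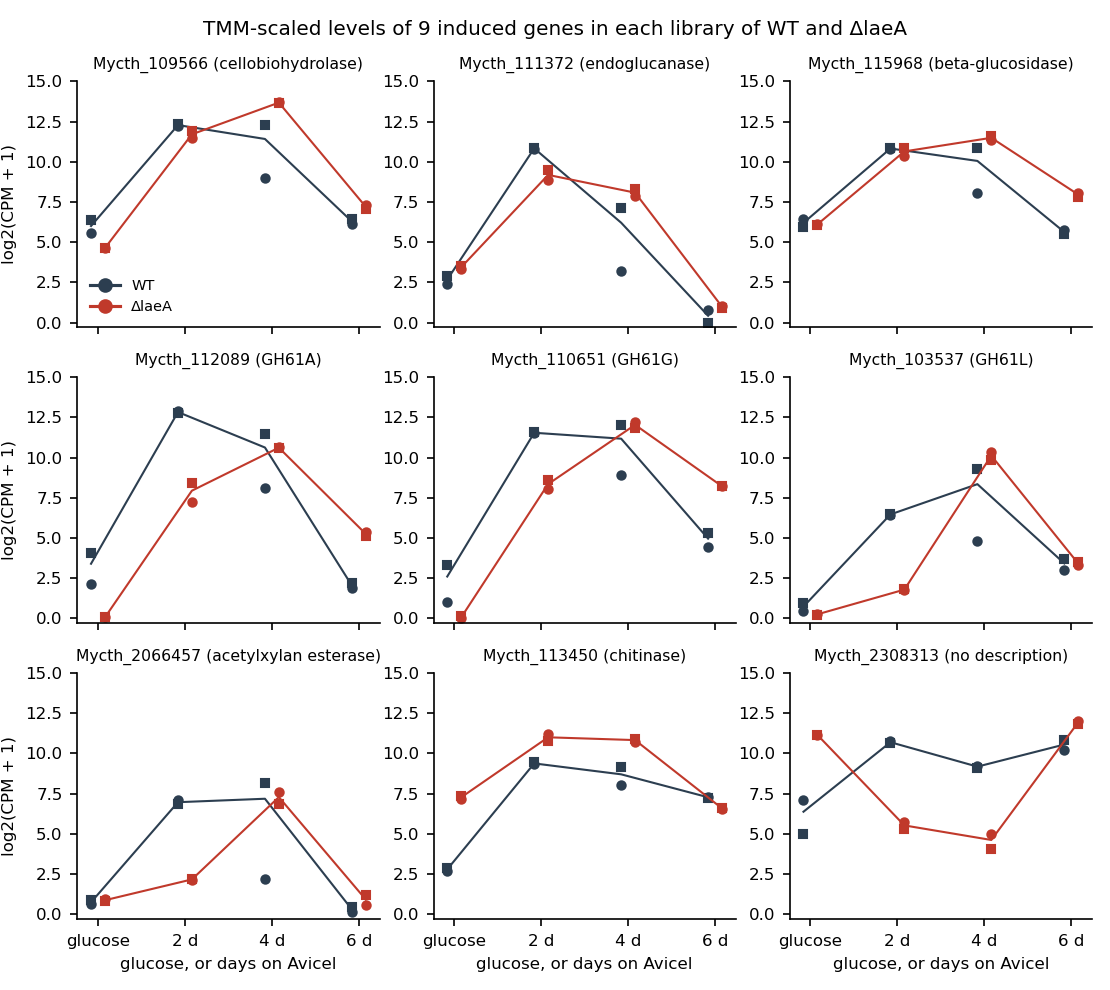
log2(TMM-scaled CPM + 1) on glucose and after 2, 4 and 6 d on Avicel for 9 induced genes, with each library as a point (circle replicate 1, square replicate 2) and a line through log2(mean + 1) for WT (dark) and ΔlaeA (red). WT replicate 1 at 4 d lies below replicate 2 in the 8 genes other than Mycth_2308313, the 3 LPMO genes (GH61A, GH61G and GH61L) are lower in ΔlaeA than in WT at 2 d, and Mycth_2308313 is high in ΔlaeA only on glucose and at 6 d.

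At 4 d, ΔlaeA could be compared with WT in libraries that the rule did not use. Below, throughout means with both WT libraries and with each alone, and not in every other fit. For the fit without ΔlaeA replicate 2 and the fit of these 2 groups alone, no share over all genes is given. Nothing is read from the counts of those fits. Of the 76 members, 27 were called higher and 11 lower in ΔlaeA, where 9.17% and 9.95% of all genes were called, and the median log2FC was 1.07. With WT replicate 1 alone 49 members were higher and 10 lower, with a median of 3.27, where 11.8% and 10.9% of all genes were called. With WT replicate 2 alone 22 were higher and 15 lower, with a median of 0.24, where 6.51% and 8.23% of all genes were called. The same 22 genes were called higher with both and with each library alone, and 8 were called lower throughout. Without ΔlaeA replicate 2, 16 were called higher. In a fit of these 2 groups alone, 6 were called higher and 7 lower.

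**Figure D4:**
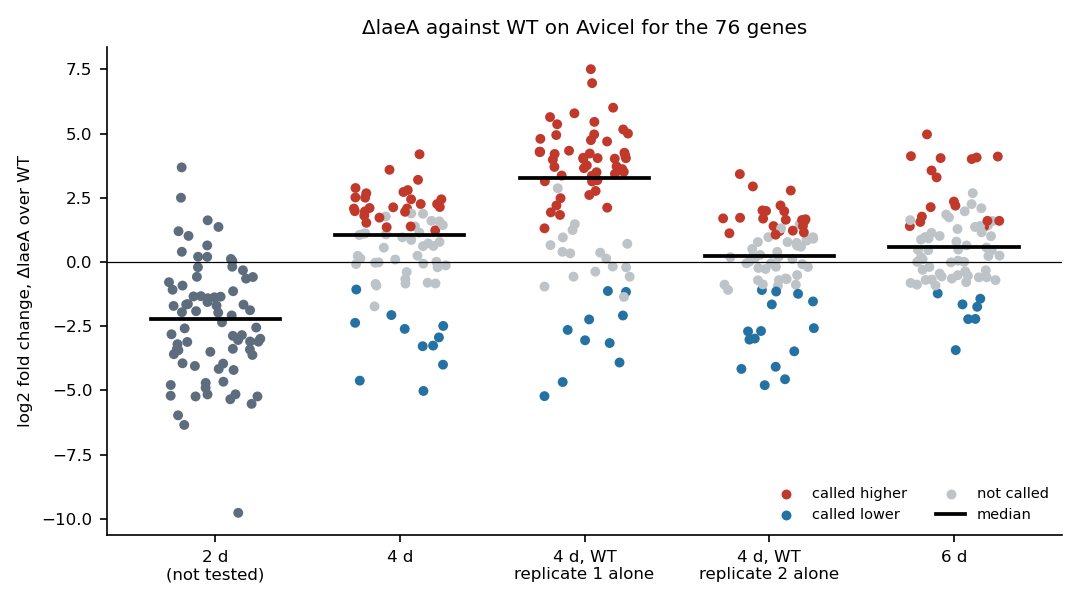
log2FC of ΔlaeA over WT for each of the 76 genes at 2 d (not tested), at 4 d with both WT libraries and with each alone, and at 6 d, with red for called higher, blue for called lower, grey for not called, and a bar at the median. The median is -2.21 at 2 d, 1.07, 3.27 and 0.24 in the 3 columns of 4 d, and 0.61 at 6 d.

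The 22 genes higher in ΔlaeA throughout included the cellobiohydrolase gene Mycth_109566, with 509 and 4991 CPM in WT and 13272 and 13085 CPM in ΔlaeA at 4 d (log2FC 2.26 ± 0.72 (SE), adjusted p = 0.0238). They also included the chitinase gene Mycth_113450, with 267 and 564 and 1694 and 1951 CPM (2.13 ± 0.33 (SE), adjusted p = 1.15e-04), and the LPMO gene Mycth_2063480, with 11.8 and 47.6 and 105 and 104 CPM (1.81 ± 0.45 (SE), adjusted p = 0.00527). In each of these genes both ΔlaeA libraries lay above both WT libraries. The family 43 gene Mycth_2064169, a family with enzymes that act on hemicellulose side chains, had 6.7 and 32.9 and 101 and 116 CPM (2.44 ± 0.62 (SE), adjusted p = 0.00663). For these 4 genes the log2FC lay between 2.77 and 4.69 with WT replicate 1 alone and between 1.13 and 1.72 with replicate 2 alone.

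The largest differences without overlap were in Mycth_94536, with 15.7 and 94.2 CPM in WT and 688 and 1336 CPM in ΔlaeA (4.20 ± 0.80 (SE), adjusted p = 0.00113), and in Mycth_81013, with 15 and 109 and 525 and 981 CPM (3.59 ± 0.68 (SE), adjusted p = 0.00103). Mycth_2307943 had 219.6 and 325 and 2665 and 2345 CPM (3.20 ± 0.30 (SE), adjusted p = 7.21e-07) and Mycth_40885 7.35 and 31.2 and 114 and 174 CPM (2.88 ± 0.50 (SE), adjusted p = 5.12e-04). In Mycth_2307943 the WT libraries were less than 2-fold apart. Mycth_84164 had 1171 and 4865 and 18571 and 20083 CPM (2.68 ± 0.46 (SE), adjusted p = 3.38e-04). Over these 5 genes the log2FC lay between 3.51 and 6.01 with WT replicate 1 alone and between 1.99 and 3.43 with replicate 2 alone.

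Both of the highest LPMO genes missed the test at 4 d, where the WT libraries were far apart. The LPMO gene Mycth_112089 had 281 and 2892 CPM in WT and 1593 and 1557 CPM in ΔlaeA, so ΔlaeA lay between the WT libraries (log2FC -0.01 ± 0.79 (SE), adjusted p = 0.994). Against WT replicate 1 alone its log2FC was 2.49 and called, and against replicate 2 alone -0.88 and not called. The LPMO gene Mycth_110651 had 479 and 4167 and 4794 and 3645 CPM (0.86 ± 0.84 (SE), adjusted p = 0.437). Mycth_2303045 was called higher against replicate 1 alone (3.50) and lower against replicate 2 alone (-1.15).

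In 7 of the 8 members lower in ΔlaeA throughout the WT libraries were less than 2-fold apart, the exception being Mycth_2304239. Mycth_2308313 had 602 and 557 CPM in WT and 31.3 and 15.9 CPM in ΔlaeA (log2FC -4.62 ± 0.54 (SE), adjusted p = 1.38e-05). Mycth_99853 had 374 and 418 and 32.4 and 17.2 CPM (-3.99 ± 0.30 (SE), adjusted p = 7.08e-08), Mycth_83595 53.3 and 71.9 and 5 and 7.96 CPM (-3.28 ± 0.32 (SE), adjusted p = 1.67e-06), and Mycth_2309656 17.6 and 13.1 and 0.417 and 0.525 CPM (-5.02 ± 0.56 (SE), adjusted p = 7.08e-06). Mycth_2304239 had 42.6 and 158 and 18.5 and 20.6 CPM (-2.37 ± 0.48 (SE), adjusted p = 0.00156), and Mycth_75329, Mycth_2312477 and Mycth_59005 completed the set. Over the 8 genes the log2FC lay between -5.22 and -1.13 with WT replicate 1 alone and between -4.79 and -2.68 with replicate 2 alone. For the count that follows no share over all genes is given, so nothing is read from it. Of the 9 members that fell in ΔlaeA from glucose to 2 d, 5 were called lower at 4 d, and 5 and 6 with WT replicate 1 and 2 alone.

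The comparisons at 2 d and 4 d share no library, but the 2 d difference rests on the WT libraries that chose the genes. Of the 56 members at least 2-fold lower in ΔlaeA at 2 d, 12 (21.4%) were called higher at 4 d, 9 (16.1%) lower and 35 neither. Of all 1102 genes so lower at 2 d, 9.53% were called higher at 4 d and 32.1% lower. Of the 56, 32 were higher with WT replicate 1 of 4 d alone, 9 lower and 15 neither, where 16.2% and 29.9% of the genes lower at 2 d were called higher and lower. With replicate 2 alone, 8 were higher, 12 lower and 36 neither, where 5.63% and 30.9% were so. All 6 members higher at 2 d were called higher at 4 d with both libraries and with each alone, where 30.9%, 30.8% and 24.2% of the 530 genes higher at 2 d were. Of all 7195 genes without such a difference at 2 d, 7.51% were called higher at 4 d and 6.77% lower. For the counts with 1 WT library alone that close this paragraph no such share is given, so nothing is read from them. Of the 14 members without such a difference at 2 d, 9 were higher, among them the cellobiohydrolase gene, and 2 lower at 4 d. These became 11 and 1 with WT replicate 1 alone and 8 and 3 with replicate 2 alone.

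The members were then followed to 6 d. From 4 d to 6 d in WT, 7 members were called higher and 54 lower, where 12.4% and 7.52% of all genes were called, with a median log2FC of -2.88. These shares hold for the fit of all libraries only. For the other fits in this paragraph none is given, so nothing is read from their counts. With WT replicate 1 of 4 d alone 6 members were called higher and 38 lower, and with replicate 2 alone 5 and 57. Without replicate 2 of 6 d, 3 were called higher, and in a fit of these 2 groups alone 9 were higher and 10 lower. In ΔlaeA, 8 members were called higher and 57 lower, where 12.6% and 13.0% of all genes were called, with a median log2FC of -3.65, and no library left out moved these counts outside 8 and 54 to 57.

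The cellobiohydrolase gene Mycth_109566 fell from 509 and 4991 CPM to 69.7 and 84.9 CPM in WT (log2FC -5.15 ± 0.82 (SE), adjusted p = 2.53e-04, or -2.72 and -6.02 with WT replicate 1 and 2 of 4 d alone) and from 13272 and 13085 to 158 and 135 CPM in ΔlaeA (-6.49 ± 0.88 (SE), adjusted p = 4.35e-05). The endoglucanase gene Mycth_111372 fell from 230.0 and 312 to 1.09 and 0.889 CPM in ΔlaeA (-8.09 ± 1.27 (SE), adjusted p = 1.67e-04), and the family 11 xylanase gene Mycth_100068 from 486 and 366 to 1.92 and 1.07 CPM (-8.15 ± 1.61 (SE), adjusted p = 0.00151). These were among the largest falls of any member in ΔlaeA, with no overlap between days. In WT the largest were in Mycth_85556 (366 and 5376 to 1.75 and 5.71 CPM, -9.57 ± 1.15 (SE), adjusted p = 3.12e-05), in the acetylxylan esterase gene Mycth_2066457 (3.53 and 285 to 0.0815 and 0.378 CPM, -9.20 ± 1.64 (SE), adjusted p = 6.19e-04), in Mycth_92668 (26.1 and 462 to 0.285 and 0.619 CPM, -9.03 ± 1.23 (SE), adjusted p = 8.06e-05) and in the LPMO gene Mycth_112089 (281 and 2892 to 2.65 and 3.61 CPM, -8.98 ± 1.13 (SE), adjusted p = 4.30e-05). With WT replicate 1 of 4 d alone these 4 values lay between -6.60 and -3.84 and were still called.

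A small set rose from 4 d to 6 d. In ΔlaeA, Mycth_2308313 went from 31.3 and 15.9 to 4140 and 3725 CPM (log2FC 7.38 ± 0.61 (SE), adjusted p = 3.21e-07), which was above its glucose libraries. Mycth_2309656 went from 0.417 and 0.525 to 34.6 and 27 CPM (6.02 ± 0.57 (SE), adjusted p = 7.36e-07), Mycth_75329 from 8.59 and 5.2 to 240.4 and 260.2 CPM (5.18 ± 0.37 (SE), adjusted p = 5.41e-08) and Mycth_2312477 from 2.42 and 1.62 to 36.9 and 31.1 CPM (4.06 ± 0.52 (SE), adjusted p = 2.03e-05). These 4 genes had fallen from glucose to 2 d in this strain. All 4 were also called higher at 6 d than at 4 d in WT, by less than in ΔlaeA (the interaction of strain and day was called for each), with log2FC from 1.09 ± 0.31 (SE) in Mycth_75329 to 1.66 ± 0.44 (SE) in Mycth_2312477. In WT the call of Mycth_2308313 was lost without either 4 d library or without replicate 2 of 6 d, that of Mycth_2309656 without replicate 2 of 6 d, that of Mycth_2312477 without replicate 2 of 4 d, and that of Mycth_75329 without replicate 1 of 4 d or replicate 2 of 6 d. The SRP54 gene Mycth_2078150 rose in both strains, from 68.8 and 98.5 to 291 and 429 CPM in WT (2.11 ± 0.32 (SE), adjusted p = 9.61e-05) and from 62.2 and 30.5 to 411 and 312 CPM in ΔlaeA (2.96 ± 0.33 (SE), adjusted p = 3.44e-06).

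At 6 d, 17 members were called higher and 7 lower in ΔlaeA than in WT, where 2.41% and 7.95% of all genes were called, with a median log2FC of 0.61. Other fits in this paragraph stand without a share over all genes, so nothing is read from their counts. Without WT replicate 1 or 2 of 6 d 10 were higher, without ΔlaeA replicate 1 11, and the count of lower members was 1 without WT replicate 2 or without either ΔlaeA library. Without both WT libraries of 4 d, which enter only through the shared estimate of spread, 29 were called higher.

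Of the listed members, 3 of 4 LPMO genes and 1 of 3 cellulose hydrolase genes were called higher at 6 d and none lower. The cellobiohydrolase gene, the endoglucanase gene, the LPMO gene Mycth_103537, the carbohydrate-binding module gene, all 5 hemicellulose members and the chitinase gene passed the test in neither direction. Over the whole lists, 1 of 6 cellulose hydrolases and 5 of 9 LPMO and cellobiose dehydrogenase genes were higher and 0 lower. So were 1 of 12 hemicellulose enzymes and 1 of 9 pectin, galactan and mannan enzymes, with 0 lower. Of 13 fungal cell wall enzymes 1 was higher and 4 lower, and of 13 sugar transporters 0 were higher and 3 lower. Of the 3 carbohydrate-binding module genes none was called. The LPMO gene Mycth_110651 had 21.1 and 39.3 CPM in WT and 297 and 298 CPM in ΔlaeA (log2FC 3.30 ± 0.91 (SE), adjusted p = 0.0226), the LPMO gene Mycth_112089 2.65 and 3.61 and 41.1 and 33.3 CPM (3.57 ± 0.91 (SE), adjusted p = 0.0133), and the beta-glucosidase gene Mycth_115968 53.4 and 44 and 272 and 226 CPM (2.36 ± 0.59 (SE), adjusted p = 0.0112). In all 3 both ΔlaeA libraries lay above both WT libraries. Mycth_2051636, described as a prolyl 4-hydroxylase alpha subunit, had the largest difference, with 0.448 and 0.516 and 15.7 and 15 CPM (4.97 ± 0.87 (SE), adjusted p = 0.00135). It was followed by Mycth_46583 (7.91 and 9.97 and 152 and 160.3 CPM, 4.12 ± 0.66 (SE), adjusted p = 6.28e-04), Mycth_80312 (3.95 and 3.99 and 66.9 and 70.3 CPM, 4.11 ± 0.89 (SE), adjusted p = 0.00514) and Mycth_85556 (1.75 and 5.71 and 77.6 and 47.1 CPM, 4.05 ± 0.92 (SE), adjusted p = 0.00676).

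The lower members at 6 d were led by Mycth_2303328, with 810.4 and 1506 CPM in WT and 112 and 103 CPM in ΔlaeA (-3.43 ± 1.06 (SE), adjusted p = 0.0346). Mycth_2301577 had 113 and 150.4 and 41.6 and 37.1 CPM (-1.74 ± 0.45 (SE), adjusted p = 0.0143), Mycth_110470 185 and 219.7 and 62.4 and 66.8 CPM (-1.65 ± 0.40 (SE), adjusted p = 0.00893), and Mycth_2304239 11.5 and 29.3 and 7.5 and 7.7 CPM (-1.43 ± 0.48 (SE), adjusted p = 0.048). All 4 calls were lost without WT replicate 2 or without either ΔlaeA library. The comparisons at 4 d and 6 d share no library, and 6 members were called higher in both and 1 lower in both. Another 2 were lower then higher (Mycth_2308313 and Mycth_75329) and 2 higher then lower (Mycth_110470 and Mycth_2301577). No share over all genes is given for this crossing, so nothing is read from its counts. These counts were 14, 2, 2 and 1 with WT replicate 1 of 4 d alone, and with replicate 2 alone 6, 1, 3 and 0.

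Whether the difference between ΔlaeA and WT changed from 4 d to 6 d was tested as an interaction. It rose for 12 of the 76 members and fell for 11, near the shares over all genes of 11.1% and 12.8%. The median change was -0.09 in the members and -0.02 over all genes. The counts are thus not read as particular to the members, and no share over all genes is given for the fits that follow. Without WT replicate 1 of 4 d, 26 rose and 11 fell, and without WT replicate 2 of 4 d, 9 rose and 39 fell. Without replicate 2 of ΔlaeA at 4 d 7 rose. The largest rises were in Mycth_2308313 (6.00 ± 0.71 (SE), adjusted p = 1.88e-05), Mycth_99853 (4.97 ± 0.39 (SE), adjusted p = 2.24e-07) and Mycth_2309656 (4.43 ± 0.70 (SE), adjusted p = 2.05e-04), and the largest falls in Mycth_2303328 (-5.32 ± 1.45 (SE), adjusted p = 0.0125, a call lost without WT replicate 1 of 4 d), Mycth_94536 (-4.76 ± 1.06 (SE), adjusted p = 0.00376) and Mycth_2307943 (-3.90 ± 0.40 (SE), adjusted p = 2.76e-06), on the log2FC scale. Mycth_99853 lay at 374 and 418 CPM in WT and 32.4 and 17.2 CPM in ΔlaeA at 4 d, and at 168 and 212 and 359.7 and 389 CPM at 6 d, so that the strain with the higher level changed.

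The last question was whether the members were released on glucose in Δcre-1. Against WT on glucose, which the rule used, 18 members were at least 2-fold higher in Δcre-1 and 29 lower without overlap, where 16% and 22.2% of all genes were so, and nothing is read from it. The independent reference was the mean of the 3 Δgrf strains on glucose, which carry other deletions. Of the 76 members, 12 were called higher in Δcre-1 and 20 lower, where 10.5% and 14.9% of all genes were called. The median log2FC was -0.82, or -0.76 with the 1 member at 0 in Δcre-1 set at a floor of 3 counts per library, against -0.09 over all genes. Scaled by library totals alone the median over all genes was -0.62 and that of the members -1.34, with 7 members higher and 27 lower. The members' median minus that of all genes was -0.71 with library totals and -0.72 with TMM scaling. For library totals no share of all genes called is given, so nothing is read from those counts.

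**Figure D5:**
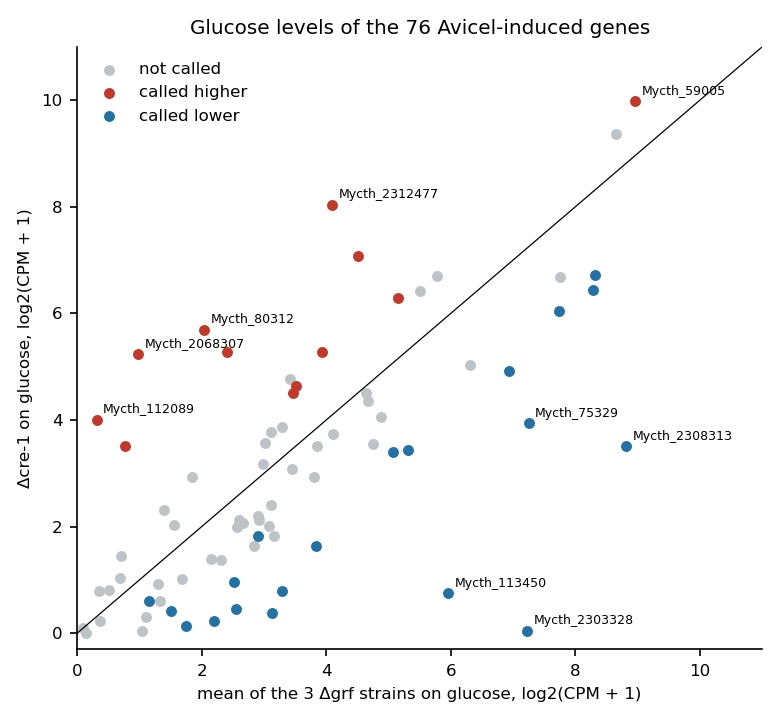
log2(TMM-scaled CPM + 1) of the 76 genes in Δcre-1 on glucose (vertical, mean of 2 libraries) against the mean of the 3 Δgrf strains on glucose (horizontal), with the line of equal level and colours for called higher (12), called lower (20) and not called (44). Most genes lie at or below the line, and the few far above it include Mycth_112089, Mycth_2068307 and Mycth_2312477.

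The LPMO gene Mycth_112089 had 14.8 and 15.3 CPM in Δcre-1, against 0.0484 and 0.131 in Δgrf-1, 0.578 in Δgrf-2 and 0 and 0.13 CPM in Δgrf-3, where 0 to 14 counts stood behind each value (adjusted p = 7.29e-05). In WT on glucose it had 3.35 and 15.8 CPM, which overlapped the Δcre-1 libraries, and in WT at 2 d 7516 and 7119 CPM. Its glucose level in Δcre-1 was thus high against the Δgrf strains and low against cellulose. No other listed enzyme of cellulose breakdown was called higher among the members. The cellobiohydrolase gene Mycth_109566 had 84.6 and 84.8 CPM in Δcre-1 and 33.5 and 29.8, 42.4 and 29.9 and 88.2 CPM in Δgrf-1, Δgrf-2 and Δgrf-3 (0.98 ± 0.57 (SE), adjusted p = 0.163), and the beta-glucosidase gene Mycth_115968 104 and 104 CPM in Δcre-1 (0.96 ± 0.46 (SE), adjusted p = 0.0938).

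The other large rises were in genes for which no description was held here. Mycth_2068307 had 35.9 and 37.3 CPM in Δcre-1 and 0.871 and 0.174, 1.57 and 0.697 and 0.957 CPM in the Δgrf strains in the same order (log2FC 5.39 ± 0.73 (SE), adjusted p = 3.65e-05). Mycth_2312477 had 263 and 263 CPM in Δcre-1 and 13.6 and 14.3, 12.3 and 35.2 and 8.92 CPM (4.07 ± 0.36 (SE), adjusted p = 4.83e-07), and Mycth_80312 48.9 and 52.7 CPM and 2.61 and 3.05, 4.04 and 2.4 and 2.52 CPM (4.06 ± 0.68 (SE), adjusted p = 2.35e-04). In each of these 3 genes both Δcre-1 libraries lay above all 5 Δgrf libraries. Mycth_59005 was the highest of the 12, with 1034 and 995 CPM in Δcre-1 and 282 and 285, 772 and 294 and 581 CPM in the Δgrf strains (1.15 ± 0.28 (SE), adjusted p = 0.00315).

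The glucose level in Δcre-1 was 1.38% of the WT level at 2 d in the median member. It reached 10% or more in 13 members, with 267% in Mycth_2312477, 53.5% in Mycth_2068307, 52.3% in Mycth_2306669 and 40.8% in Mycth_59005. In the same count, 12 members reached 10% in Δgrf-1, 13 in Δgrf-2, 16 in Δgrf-3 and 16 in ΔlaeA on glucose.

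The lower members were led by Mycth_2303328, the highest member per length in WT at 2 d. It held 1 and 0 counts in Δcre-1 against 10.3 and 10.5 CPM in Δgrf-1, 73.1 in Δgrf-2 and 24.7 and 702 CPM in Δgrf-3 (adjusted p = 3.72e-04, no fold given), and its neighbour Mycth_50335 was called lower as well. The chitinase gene Mycth_113450 had 0.784 and 0.59 CPM in Δcre-1 and 13.1 and 12.5, 24 and 200.0 and 93.7 CPM in the Δgrf strains (-5.68 ± 0.43 (SE), adjusted p = 3.73e-08). Mycth_2308313 had 10.3 and 10.4 CPM in Δcre-1 and 329 and 334, 370.1 and 685 and 609.6 CPM (-5.38 ± 0.54 (SE), adjusted p = 1.43e-06), and Mycth_75329 14.1 and 14.5 CPM and 102 and 99.6, 176 and 180.4 and 173 CPM (-3.36 ± 0.32 (SE), adjusted p = 6.12e-07). The Δcre-1 libraries were below all Δgrf libraries in these 4 genes.

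Mycth_2303328 also differed widely between the other groups on glucose, with 360.0 and 757 CPM in WT and 51.4 and 41.6 CPM in ΔlaeA. Its values in the Δgrf strains are given above, where the Δgrf-3 libraries alone spanned 24.7 and 702 CPM. The family 43 gene Mycth_2064169, at 2.16 and 2.03 CPM in Δcre-1, was the other listed enzyme called lower (-2.66 ± 0.67 (SE), adjusted p = 0.00422).

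The lists, drawn from the part of the annotation used here, hold further genes of the same pathways that did not meet the rule. All listed genes together moved as follows. At 4 d in ΔlaeA against WT, 2 of 6 cellulose hydrolases were called higher and 1 lower, 5 of 9 LPMO and cellobiose dehydrogenase genes higher and 0 lower, 4 of 12 hemicellulose enzymes higher and 2 lower, and 4 of 13 fungal cell wall enzymes higher and 2 lower, where 9.17% and 9.95% of all genes were called. Of the 3 carbohydrate-binding module genes none was called, of 9 pectin, galactan and mannan enzymes 1 was higher and 2 lower, and of 13 sugar transporters 1 was higher and 3 lower. With WT replicate 1 of 4 d alone, 5 cellulose hydrolases, all 9 LPMO and cellobiose dehydrogenase genes, 2 carbohydrate-binding module genes, 8 hemicellulose enzymes and 6 cell wall enzymes were higher, and with replicate 2 alone 2, 3, 0, 3 and 4. From 4 d to 6 d in ΔlaeA, 5 of 6 cellulose hydrolases and 7 of 9 LPMO and cellobiose dehydrogenase genes fell, and 0 rose, where 13.0% of all genes fell. In Δcre-1 against the Δgrf strains, 0 cellulose hydrolases were higher and 1 lower, 2 LPMO genes were higher and 0 lower, and 5 sugar transporters were higher and 3 lower, where 10.5% and 14.9% of all genes were called.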

How the data were processed

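The authors mapped reads with TopHat2 2.0.8b and deposited whole-number read counts per gene, made by HTSeq-count on unique exons (the notes and the paper differ in the version). For the genome build and the strand setting the sources used here give nothing. The column deposited for replicate 1 of Δgrf-2 holds RPKM values that match the Δgrf-1 libraries, so it was left out of every comparison and served only to recover gene lengths, to within 0.01 base at 8865 genes. Of the lines of the table, 9110 name a gene and 2 that name none were dropped. Of the columns of per-sample values, 0 went unused for want of a label.

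All 23 libraries were fitted together in edgeR 4.0.16 (R 4.3.3) with 1 coefficient per group, TMM scaling (factors 0.739 to 1.14), filterByExpr (8827 genes kept, all 76 members among them) and the robust quasi-likelihood F-test with 11 residual degrees of freedom. The lone Δgrf-2 library is assumed to vary like the other groups. Calls needed a p below 0.05 after Benjamini-Hochberg adjustment over all genes and a log2 fold change of 1 or more in size. The SE of a log2 fold change was its size divided by the square root of F. The script was tested on simulated data. A floor of 3 counts corresponds to 0.0884 to 0.166 CPM and covers counting error only.

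The members and the gene lists were chosen with earlier results of these data known. Named are listed members, the 10 highest members per length in WT at 2 d, the 4 largest rises and falls per tested comparison with no overlap (not asked of the interaction) whose higher group reached 10 CPM, and the genes at the thresholds. Alternatives were DESeq2 1.42.0, RLE scaling, library totals alone, other low-count filters (none, or 10 CPM in 2 libraries), replicate number as a block, only the groups compared, adjusted p alone, and each library left out. Fits without both WT libraries of 4 d, the list and overlap counts with each of them alone, and all alternatives of the untested comparisons, were chosen after seeing the data. Sequence features of the proteins were planned and not computed, since no protein table was used here. Python 3.11.15 with matplotlib 3.10.9 drew the figures.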

Additional observations from a re-analysis of the deposited data

Results flagged for a closer look

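The difference between ΔlaeA and WT changed between 4 d and 6 d, by the interaction term of the edgeR fit, for 23 of the 76 members. It rose for 12 and fell for 11, near the shares over all genes of 11.1% and 12.8%, so the counts are not particular to the members. No share over all genes is given for the fits with 1 library left out. Leaving out 1 library moved these counts from 7 to 26 and from 8 to 39, with 26 and 11 without WT replicate 1 of 4 d and 9 and 39 without WT replicate 2. Among the named members the change in log2 fold change was 6.00 in Mycth_2308313, 4.97 in Mycth_99853, 4.43 in Mycth_2309656 and 4.20 in Mycth_46583 (2.29 with WT replicate 1 of 4 d alone), and -5.32 in Mycth_2303328, -4.76 in Mycth_94536, -3.90 in Mycth_2307943 and -3.18 in Mycth_2299854. Mycth_2299854 was at most 3.34 CPM in every library of both days, and its call was lost without replicate 1 of ΔlaeA at 4 d. Between 2 d and 4 d, 30 members had both ΔlaeA libraries below both WT libraries at the first day and above both at the second, as had 12.3% of all genes tested. With WT replicate 1 of 4 d alone there were 47, where 16.7% of all genes did so, and with replicate 2 alone 30, where 14.2% did. This difference was not tested, since the WT libraries at 2 d chose the genes.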

How the results depend on the processing

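The replicate numbers did not pair the libraries, as the deviations of same-numbered libraries from their group means correlated with r from -0.15 to 0.12 over 55 pairs of groups, with 2 pairs above 0.1. With replicate number as a block, 54 members were called higher and 9 lower in ΔlaeA from glucose to 2 d, 29 and 11 against WT at 4 d, 18 and 7 at 6 d, and 12 and 20 in Δcre-1, so no count moved by over 1.5 times. With only the groups compared, ΔlaeA against WT gave 6 higher and 7 lower at 4 d and 30 higher at 6 d, and WT from 4 d to 6 d gave 10 lower. Without both WT libraries of 4 d, 29 were higher at 6 d. With library totals alone, 7 were higher in Δcre-1, and the split of its calls moved from 12 and 20 to 7 and 27. The causes were not tested. For the fits of this section no share over all genes is given, so their counts are not read as particular to the members. Leaving out 1 library, the counts of higher and lower members ran from 43 to 50 and 6 to 7 in ΔlaeA from glucose to 2 d, from 16 to 49 and 10 to 15 against WT at 4 d, from 10 to 12 and 1 to 6 at 6 d, from 3 to 7 and 38 to 57 in WT from 4 d to 6 d, from 30 to 37 and 9 to 11 in ΔlaeA from 2 d to 4 d, and from 10 to 13 and 18 to 20 in Δcre-1. In the interaction they ran from 7 to 26 and 8 to 39. In the untested comparison of WT at 4 d with 2 d they ran from 0 to 13 and 30 to 68. Over 209 pairs of a named gene and a comparison, 5 of 2608 values changed direction, all without WT replicate 2 of 4 d. They were the interaction in Mycth_112399, Mycth_115968, Mycth_2066457 and Mycth_66729, which ran from -3.18 to 1.40, from -1.08 to 1.72, from -3.61 to 3.27 and from -2.32 to 0.86 over the libraries left out, and ΔlaeA against WT at 4 d in Mycth_112089, which ran from -0.88 to 2.49, on the log2 scale. A call was lost in 121 of the values and gained in 69. Of 64 calls named for their size, 54 were kept whichever library was left out.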
